A study of Nicotiana tabacum with 36 samples.

Results

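The 200 gene models of tobacco (Nicotiana tabacum) whose expression varied least over root, shoot and shoot apex through a day were taken from the 69500 predicted models measured in 36 RNA-seq libraries. Expression is given in TPM, a share of the library's reads per base of model length that sums to the same total in every library. For each model the median TPM of 3 replicates was taken in each of 12 groups of tissue and time-point, models with all 12 medians from 10 to 100 TPM were retained, and these were ranked by the standard deviation (SD) of the 12 log2 medians. Of the 6986 models inside that window the 200 with the lowest SD are described, beside the 6786 others. Because the medians of all 36 libraries chose the members, their steadiness is a description of how they were chosen and was not tested.

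Genes expressed at a steady level are often called housekeeping genes and are used as the reference against which the changes of other genes are measured, for example in quantitative PCR. Many known ones in plants act in protein synthesis and turnover, the cytoskeleton or central metabolism, but steadiness is a property of the samples compared and not of a gene alone. TPM is a share of a library, so that a few very abundant transcripts in one library lower the TPM of every other model in it.

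The plants were of cultivar K326, with no treatment or transgene named in the labels, and were 56 days old, grown in 18 h of light and 6 h of dark. Shoot apex, whole shoot and root were each sampled at ZT0, ZT6, ZT12 and ZT18 (zeitgeber time, hours after lights on), with 3 replicates in each of the 12 groups. Whether a replicate was 1 plant or a pool is not given in the sources used here, and where replicates share plants p-values measure only the spread between these samples. In whole organs fewer cells of a type and less RNA per cell cannot be told apart. The gene models carry no gene names here, so the members are given by their identifiers and the tissues were not checked against named markers.

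The libraries held from 4125090 to 21265992 expected read counts (median 12649542). A pair of shoot libraries stood apart. The 10 most abundant models held 36.6% of the counts of shoot ZT6 replicate 1 and 12.2% of those of shoot ZT18 replicate 2, where the other 34 libraries gave 1.42% to 5.45%. All 200 members had their lowest value of the 3 replicates in each of these libraries. Both are among 5 libraries with a low share of mapped reads in the quality metrics that accompany the data, the others being root ZT6 replicates 1 and 2 and root ZT18 replicate 2. The entry for root ZT18 replicate 2 does not match its deposited table, which held 13332241 expected counts, 1.67% of them on the 10 most abundant models, and gave the members a median offset of 0.08, so counts without the 5 libraries are also given with this one kept. Lowest values and counts of calls that rest on these libraries are given with and without them. Without the 5 libraries root at ZT6 is left with replicate 3 alone, also where root ZT18 replicate 2 is kept. Each group was summarised by a median of 3, which limits the pull of a single low library. Of the 200 members 170 were chosen again without both shoot libraries and 136 without the 5 libraries. Without one replicate number 55 to 96 were chosen again.

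The SD of the 12 log2 medians ran from 0.0852 to 0.175 in the members (median 0.154), against 0.419 at the median (quartiles 0.314 and 0.547) in the 6786 others. On a linear scale the highest of the 12 medians was between 1.22 and 1.61 times the lowest in the members, and under 1.5 times in 166 of them. Among the others the median ratio was 2.48, and 74.1% of them varied by more than a factor of 2. There was no gap at the edge of the list. Ranks 199 (Nitab4.5_0029200g0010.1) and 200 (Nitab4.5_0000116g0300.1) had SDs of 0.175 and 0.1751, while ranks 201 (Nitab4.5_0003367g0080.1) and 202 (Nitab4.5_0000083g0020.1), just outside, had 0.1751 and 0.1753. Their highest medians were 1.41, 1.43, 1.47 and 1.42 times the lowest in that order of rank, so the list is the end of a continuous distribution.

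The steadiest model was Nitab4.5_0008335g0030.1, with a length of 851 bases and a geometric mean of 13 TPM. Its medians at ZT0, ZT6, ZT12 and ZT18 were 11.7, 12.2, 14.2 and 12.4 TPM in shoot apex, 13.5, 12.8, 13.1 and 12.3 TPM in shoot, and 13.2, 13.2, 14.2 and 13.1 TPM in root. Apart from 0.67 TPM in shoot ZT6 replicate 1 and 4.19 TPM in shoot ZT18 replicate 2, its single libraries ran from 10.4 to 18.3 TPM, both ends of which lay at ZT18, in root and in shoot apex. The 3 tissues overlapped throughout.

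Nitab4.5_0005460g0020.1 (1640 bases) was second, with medians of 27.1, 31.2, 30.3 and 34.8 TPM in shoot apex, 32.7, 31.2, 33.7 and 30.7 TPM in shoot, and 33.1, 31, 31.7 and 31.1 TPM in root from ZT0 to ZT18. Its lowest and highest medians both fell in shoot apex, and its 4 root medians lay between 31 and 33.1 TPM. Nitab4.5_0001177g0090.1 (1470 bases) had medians of 12.8, 12.4, 13.2 and 10.8 TPM in shoot apex, 13.6, 12.2, 12.8 and 11.5 TPM in shoot, and 11.4, 12.2, 12.6 and 11.9 TPM in root. Here too the lowest median came from shoot apex, at ZT18, but the highest came from shoot at ZT0.

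Nitab4.5_0001339g0030.1 (752 bases) gave medians of 22.9, 24.6, 23.3 and 26.8 TPM in shoot apex, 24.3, 20, 23.3 and 22.5 TPM in shoot, and 25.4, 22.6, 24 and 24.8 TPM in root. For Nitab4.5_0022896g0010.1 (1553 bases) the medians were 15.7, 14, 14.6 and 14.1 TPM in shoot apex, 14.5, 12.4, 14.3 and 11.8 TPM in shoot, and 14.1, 13.3, 13.3 and 14.3 TPM in root. Across the 34 libraries other than the odd shoot pair, single values of these 4 models ran from 22.7 to 38.8, 9.91 to 15.5, 16.8 to 34.7 and 10.9 to 20 TPM. The single replicates thus reached further than the group medians by which the models were chosen, as the plot of the 5 models by library shows.

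**Figure D1:**
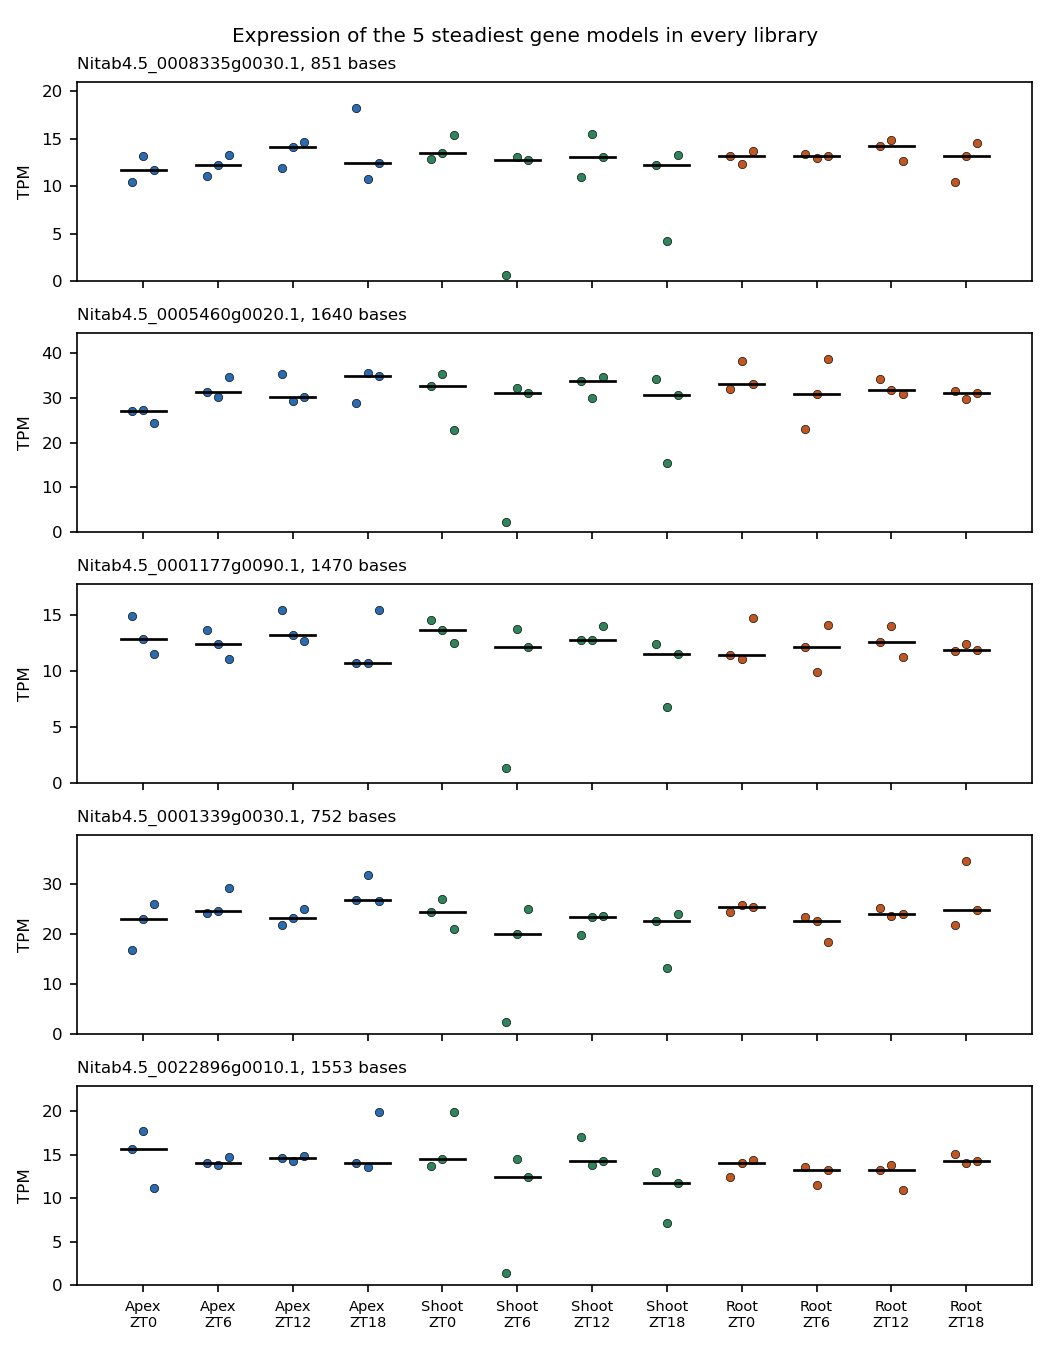
TPM of the 5 models with the lowest SD in each of the 36 libraries (points, coloured by tissue, replicates 1 to 3 from left to right) and the median of each group (black line), by tissue and time-point on a linear axis from 0. The medians of the first model stay between 11.7 and 14.2 TPM, while for all 5 models the lowest points are replicate 1 of shoot at ZT6 and replicate 2 of shoot at ZT18.

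The members covered most of the window without following its distribution of levels. Their geometric mean over the 12 medians ran from 11.9 to 79.7 TPM with a median of 23.5 TPM, close to 25.9 TPM in the others. Members were more common at its low end, where 84 (42% of the members) averaged 10 to 20 TPM, against 25.5% of the window. From 20 to 40 TPM there were 78 (39%, against 57.2% of the window) and from 40 to 100 TPM 38 (19%, against 17.3%). A model near an edge of the window stays inside it only if it varies little, which favours steady models there by construction. In 28 members the lowest median was under 12 TPM, and in 2 (Nitab4.5_0000069g0020.1 and, named after its values were seen, Nitab4.5_0000076g0240.1) the highest was over 90 TPM.

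The most abundant member was Nitab4.5_0000069g0020.1 (1349 bases, rank 149). Its lowest, median and highest values over 12 libraries were 64.2, 75.3 and 91.7 TPM in shoot apex, 10.8, 71.1 and 82.6 TPM in shoot (lowest 55.2 TPM without the odd shoot pair), and 80.6, 91.6 and 104 TPM in root. Shoot apex and root overlapped between 80.6 and 91.7 TPM. The least abundant, Nitab4.5_0009486g0020.1 (717 bases, rank 157, 11.9 TPM), ranged over 8.01, 11.3 and 18 TPM in shoot apex, 2.89, 12.8 and 18.7 TPM in shoot (lowest 10.4 TPM without the pair), and 8.02, 12 and 20.7 TPM in root. Its 3 tissues overlapped almost completely, and it had the widest replicate spread of all members in the 34 libraries, an SD of 0.359 on the log2(TPM + 1) scale.

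The members were mostly of middle length. Their lengths ran from 477 to 4014 bases with quartiles of 979, 1242 and 1508 bases, against 912, 1256 and 1766 bases in the others. Models of 900 to 1800 bases made up 72.5% of the members (145) and 52.4% of the others, and models over 1800 bases 8.5% (17) and 23.7%. Under 900 bases the shares were 19% (38 members) and 23.9%. The longest member, Nitab4.5_0000901g0120.1, had lowest, median and highest values of 10.9, 15.9 and 19.8 TPM in shoot apex, 1.74, 17 and 18.6 TPM in shoot (lowest 14.3 TPM without the odd shoot pair), and 13, 14.5 and 16.3 TPM in root. Its replicate SD in the 34 libraries was 0.136, below the first quartile of the members (0.163). The shortest, Nitab4.5_0010557g0010.1, had 21.3, 34.2 and 41.9 TPM in shoot apex, 4.67, 34.1 and 41.7 TPM in shoot (lowest 27.1 TPM without the pair), and 18.9, 30.7 and 37 TPM in root. Both overlapped between all 3 tissues, with and without the pair.

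A length divisible by 3 was found for 51% of the members (102) and 59.3% of the others in the window, against 83.7% of all 69500 models. The other lengths are not whole numbers of codons. By the scaffold number in the identifiers the members lay on 195 scaffolds, 5 of which held a pair. No pair was adjacent in the numbering. The nearest were Nitab4.5_0001147g0070.1 with Nitab4.5_0001147g0090.1, and Nitab4.5_0001308g0140.1 with Nitab4.5_0001308g0160.1, each 2 steps apart. The first pair averaged 44.5 and 19.5 TPM and the second 26.1 and 55.3 TPM. The scaffolds of the members held a median of 11.5 models, against 10 for all models in the window, and 9 members (4.5%) were alone on theirs, against 4.68%.

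How small a change can be seen depends on the reads behind a value. A member had a median of 305 expected counts in a library (lowest member 74, highest 1362). At that count, counting error alone gives a single library an SD of 0.0826 on the log2 scale at the median member (0.0391 to 0.168 over the members), and 0.0763 in the others. A group median of 3 libraries has a smaller counting error than that.

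In the members the replicates of one group differed by more than the groups, which were chosen to differ little. Over all 36 libraries the replicate SD within groups had a median of 0.537 in the members and 0.608 in the others on the log2(TPM + 1) scale. In the 34 libraries without the odd shoot pair it was 0.192 in the members (0.0995 to 0.359) and 0.326 in the others. It exceeded the SD between group medians in all 200 members and in 89.3% of the others, and in the 34 libraries in 161 members (80.5%) and 34.5% of the others. A median of 3 replicates varies less than a single replicate does, so that the comparison is one of size and not a test. The rule also kept the SD between medians low in the members, at 0.175 or less. Their smallest replicate SD in all 36 libraries was 0.419. The 200 and the 80.5% thus follow in large part from the choice.

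The largest replicate SDs belonged to Nitab4.5_0002319g0030.1 (0.644, or 0.195 in the 34 libraries) and Nitab4.5_0003808g0070.1 (0.641, or 0.314). In Nitab4.5_0002319g0030.1 the odd shoot libraries gave 3.08 and 17.6 TPM, against a shoot median of 41.7 TPM and 34.3 TPM in the lowest of the other 10 shoot libraries. The smallest belonged to Nitab4.5_0001567g0160.1 (0.419, or 0.216) and Nitab4.5_0002132g0030.1 (0.427, or 0.203). Without the odd shoot libraries the SD of each of these 4 members was lower by more than 0.2, and the order of the 4 changed.

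The members and the other models deviated most from their own means in the same groups, low in one and high in one. Shoot apex at ZT0 was the low group and root at ZT18 the high one. At ZT0 in shoot apex only 35 of the 200 members were above their own mean, the median deviation was -0.13 on the log2 scale, and 49 members had their lowest median there. At ZT18 in root 161 members were above their own mean with a median deviation of 0.11, and 49 had their highest median there. The others in the window deviated in the same groups by -0.26 and 0.21. In the remaining groups the members' median deviation lay between -0.05 and 0.05, the 2 lowest being shoot at ZT18 (-0.05) and root at ZT6 (-0.05).

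**Figure D2:**
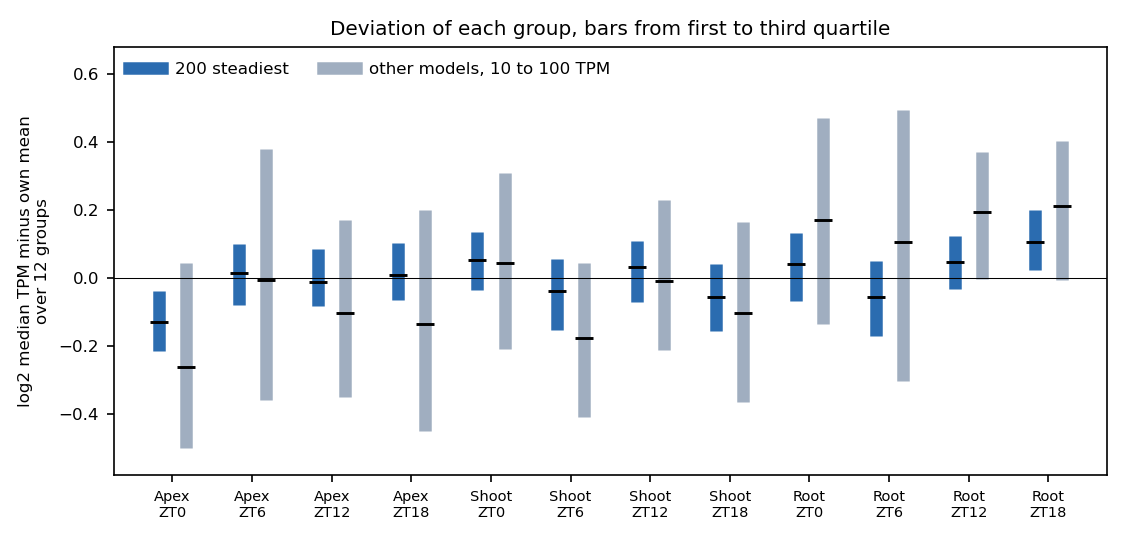
Log2 of the median TPM in each of the 12 groups minus the mean of the 12 log2 medians of the same model, for the 200 members (blue) and the 6786 others (grey). Bars span the first to the third quartile over the models and black lines mark the median, which for the members is lowest in shoot apex at ZT0 (-0.13) and highest in root at ZT18 (0.11).

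Averaged over the 4 time-points, 37 members were highest in shoot apex, 64 in shoot and 99 in root, and 82, 73 and 45 were lowest there. Of the others, 1532, 1417 and 3837 were highest in the same tissues. Averaged over the 3 tissues, 32, 48, 49 and 71 members were highest and 60, 84, 19 and 37 lowest at ZT0, ZT6, ZT12 and ZT18. The SD between the 3 tissue means had a median of 0.0942 in the members and 0.335 in the others, and the SD between the 4 time means 0.0777 and 0.204.

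Tissue took a smaller share of the variation of the members. When the variance of the 12 log2 medians of a model was split, its tissue means held a median of 27.2% in the members and 55.4% in the others. Time means held 21.8% and 22.8%, and the remainder, specific to a tissue at a time, 40.8% and 16.4%. The remainder was the largest of the 3 shares in 96 members, tissue in 61 and time in 43, while among the others tissue was the largest in 4484 of 6786. With 1 median per group the remainder also holds the replicate error of the medians. The split uses the 12 medians whose SD the rule ranked. A low SD leaves little room for tissue differences, so the shares describe the choice and were not tested.

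Within a library the members moved together. In shoot ZT6 replicate 1 all 200 lay below their own mean, with a median offset of -2.79 log2 units against -2.77 in the others, and 198 of them were under 10 TPM. In shoot ZT18 replicate 2 all 200 were the lowest of their 3 replicates, with a median offset of -0.89 against -0.85 in the others. Dividing TPM by the library factor of edgeR's TMM (trimmed mean of M-values), 0.298 and 0.83 in these libraries, left offsets of -1.49 and -0.68, against -1.42 and -0.62 in the others. That factor was computed on counts, whereas TPM is also scaled by the lengths of the models counted. Their mean inverse length per kb was 1.89 and 1.13 in these libraries, against 0.648 to 0.979 in the 34 others. The division leaves that scaling as it was, so these offsets do not show how well TMM scales the counts. The members took 0.155% and 0.436% of all expected counts there, against 0.455% to 0.677% in the 34 other libraries.

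In those 34 libraries the median offset of the members ran from -0.23 (shoot apex ZT0 replicate 3) to 0.16 (shoot apex ZT18 replicate 3), and that of the others from -0.40 to 0.30. Around that offset the members scattered by an SD of 0.134 to 0.378, and the others by 0.366 to 0.692. The widest scatter of the members was in shoot ZT0 replicate 3. The scatter of the others was wider in each of the 36 libraries.

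**Figure D3:**
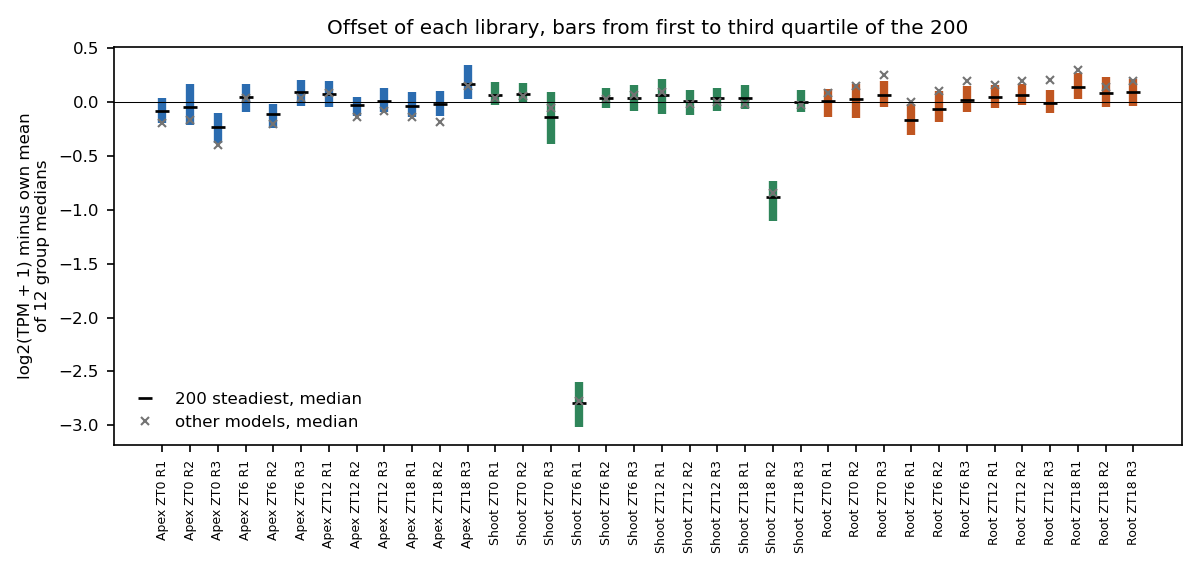
Log2(TPM + 1) of the members in each library minus the mean over the 12 group medians of the same model. Bars span the first to the third quartile of the 200, coloured by tissue, with black lines at their median and grey crosses at the median of the 6786 others. The offsets of the 200 are -2.79 and -0.89 in the odd shoot libraries and between -0.23 and 0.16 in the other 34.

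The libraries also differed in the length of the models that their reads fell on. Leaving aside the odd shoot libraries, which lay far toward short models, the 34 others were divided at the widest gap in the mean inverse length of the models counted. With the odd pair added to the short side, 13 libraries lay toward long models and 23 toward short ones. These classes were set from the data and cut across 10 of the 12 groups. Within those groups members under 900 bases were changed by -0.02 log2 units in the long-model libraries relative to the short-model ones, and members over 1800 bases by 0.19. Among the others the same shifts were -0.43 and 0.71. From 900 to 1800 bases they were 0.05 in the members and 0.08 in the others. The members were less spread by length between the classes than other models of the same ranges of length, and few of them were long. Over 1800 bases the others reached 7374 bases, against 4014 in the members. The shifts come from the same TPM values that the rule ranked, so they describe the chosen models and are not a test. Within the long-model class the SD over groups had a median of 0.189 in the members and 0.328 in the others, and within the short-model class, which contains both odd shoot libraries, 0.426 and 0.544. The part of the length classes in the choice of the members was not tested.

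To measure steadiness in libraries that the choice did not use, 200 models were chosen by the same rule on the means of 2 replicates, and the SD over the 12 groups was taken in the replicate held out. With replicate 3 held out the chosen models had a median SD of 0.272, against 0.506 in the rest of the window, and 196 of the 200 were below the rest's median. With replicate 2 held out, which contains shoot ZT18 replicate 2, the values were 0.359 and 0.523, and 193 of 200 were below. With replicate 1 held out, which contains shoot ZT6 replicate 1, they were 0.852 and 0.953, and 177 were below. Without the 5 libraries of low mapping the median over the 3 choices was 0.216 for the chosen models and 0.472 for the rest. These values are not over the same 12 groups as those above. Replicate 1 then lacks root and shoot at ZT6, and replicate 2 lacks root at ZT6 and both root and shoot at ZT18. With replicate 3 held out, no library of root at ZT6 is left for the choice.

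**Figure D4:**
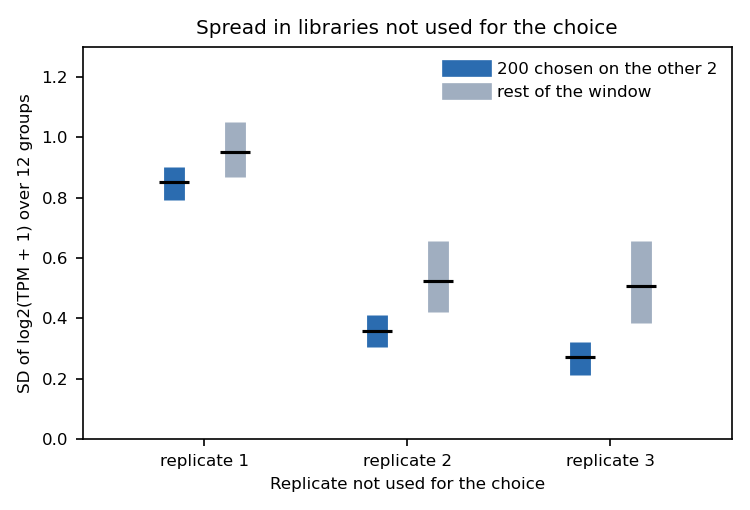
SD of log2(TPM + 1) over the 12 groups in the replicate that was not used to choose the models, for the 200 chosen on the other replicates (blue) and the rest of the window (grey). Bars span the first to the third quartile and black lines mark medians, which are lower for the chosen models with each replicate held out (0.852 against 0.953, 0.359 against 0.523 and 0.272 against 0.506).

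The chosen models thus varied less than the rest of the window in libraries outside the choice. Their median SD was larger there than in the choice itself (0.189, 0.253 and 0.268 with replicates 1, 2 and 3 held out). These are unlike measures, since the SD in the choice is of means of 2 libraries and the held-out SD of single libraries. These choices recovered 96, 60 and 55 of the 200 members, and 24 members were recovered by all 3. The labels tie libraries of one replicate number to no shared plant or batch, and the medians were compared with no test.

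The tissue contrasts of the members were fitted with edgeR's quasi-likelihood test on the expected counts of all 36 libraries, with p-values adjusted by Benjamini-Hochberg over the 44594 models that passed its filter on low counts. All 200 members passed that filter. Since the rule selected on the same tissues and times, the counts of calls are descriptions. Between shoot apex and root 61 members had an adjusted p under 0.05 (60 higher and 1 lower in shoot apex), where 66.8 percent of all models did (31 percent higher and 35.9 percent lower). For shoot apex against shoot there were 27 (23 higher and 4 lower), beside 55.8 percent of all models (26.2 and 29.7 percent). For shoot against root there were 40 (38 higher and 2 lower), beside 56.6 percent (25.6 and 30.9 percent). With the length class of the libraries as a term there were 71 (66 higher and 5 lower, beside 72.1 percent of all models), 51 (46 and 5, 63.7 percent) and 59 (38 and 21, 62.7 percent), so that the lower calls in shoot against root numbered 21 with the class term and 2 without it. In total 120 members had no call in any of the 6 comparisons made, as did 18.6% of all models tested.

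The size of the differences was small, as the choice of the members required. No member had a fitted difference over 1 log2 unit in any contrast, against 43.4%, 32% and 35.5% of the other models tested in the 3 contrasts. With the highest median at most 1.61 times the lowest, the choice left such a difference little room. The other models of these fits are the 44394 others tested, at any level, and not the 6786 in the window. In shoot apex over root the members ran from -0.21 to 0.54 with a median of 0.13, in shoot apex over shoot from -0.27 to 0.44 with a median of 0.07, and in shoot over root from -0.24 to 0.42, again with 0.07 at the middle. A member's difference had a standard error (SE) of about 0.099 at the median of each contrast.

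These directions depended on the fit, and the fits differ in more than scale. TMM sets the middle of all models near 0, whereas TPM does not. EdgeR fits counts, while limma averages log values, in which the odd shoot libraries (member offsets of -2.79 and -0.89) weigh as much as any other. The parts of scale and of averaging in the differences below were not tested. On the log2(TPM + 1) scale with limma the members' medians were -0.05, 0.28 and -0.33 for shoot apex over root, shoot apex over shoot and shoot over root, so that the direction of shoot apex against root and of shoot against root was the opposite of that in edgeR. The change of fit moved the median of the other models by -0.13, 0.15 and -0.30. Relative to those medians the members lay higher by 0.21, 0.14 and 0.14 in edgeR and by 0.16, 0.19 and 0.05 in limma. By limma 0 members were called in shoot apex against root, also at an unadjusted p under 0.05 (beside 55.9 percent of all models called), 2 in shoot apex against shoot, both higher (38.3 percent), and 12 in shoot against root, all lower in shoot (53.4 percent).

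The 5 libraries of low mapping, all of shoot or root, changed the counts. Leaving them out leaves root at ZT6 with replicate 3 alone, so that the spread within that group is not measured. The contrasts with root still give this library the weight of a whole group. Without them edgeR called 89 members in shoot apex against root (all higher, beside 62.8 percent of all models), 17 in shoot apex against shoot (11 higher and 6 lower, 52.8 percent) and 72 in shoot against root (all higher, 52.7 percent). Limma then called 34 (3 higher and 31 lower, 63.8 percent), 16 (3 higher and 13 lower, 50.5 percent) and 16 (5 higher and 11 lower, 53.6 percent). With root ZT18 replicate 2 kept, a choice made after seeing the data, edgeR called 87 (all higher, 62.6 percent), 24 (22 higher and 2 lower, 52.8 percent) and 53 (all higher, 52.7 percent), and limma 34 (2 higher and 32 lower, 63.8 percent), 16 (3 and 13, 50.6 percent) and 17 (5 and 12, 53.5 percent). Without these libraries most called members were thus higher by edgeR and lower by limma in all 3 contrasts.

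**Figure D5:**
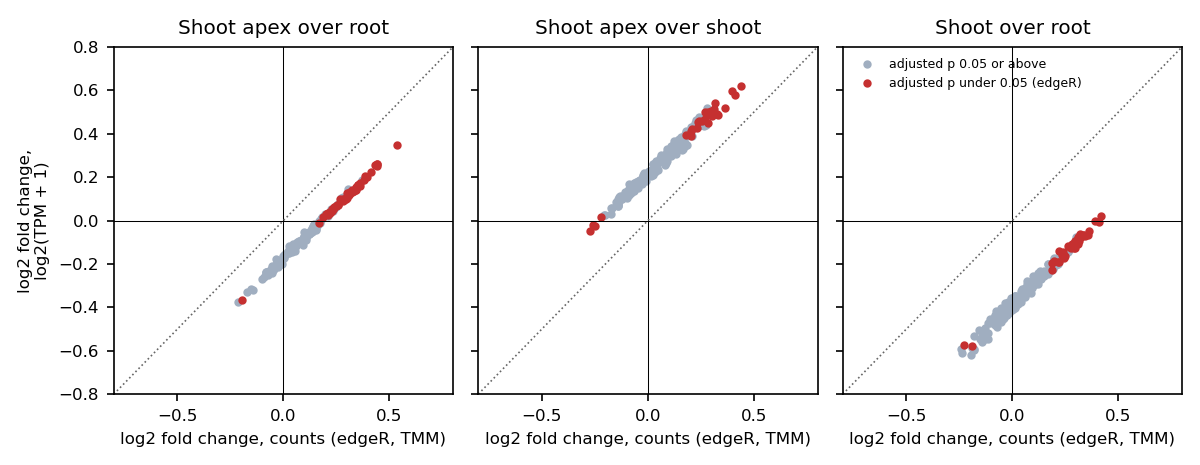
Log2 fold change of each of the 200 members in the 3 tissue contrasts, fitted on counts with TMM scaling by edgeR (horizontal axis) and on log2(TPM + 1) by limma (vertical axis). Red points have an adjusted p under 0.05 in edgeR (61, 27 and 40 members) and the dotted line marks equal values. The points lie below that line for shoot apex over root and shoot over root, and above it for shoot apex over shoot.

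The member with the largest difference between shoot apex and root was Nitab4.5_0001628g0050.1 (979 bases, rank 88). It had 25.4, 30.1 and 36.5 TPM in shoot apex and 17.9, 23.9 and 27 TPM in root (lowest, median and highest of 12 libraries), and the ranges overlapped between 25.4 and 27 TPM. The edgeR difference was 0.54 ± 0.11 (log2, SE; adjusted p = 8.7e-05). On the log2(TPM + 1) scale it was 0.35 and did not pass (limma, adjusted p = 0.183), but passed at 0.38 without the 5 libraries (adjusted p = 0.00175). At the other end Nitab4.5_0000116g0300.1 had -0.21 ± 0.12 (adjusted p = 0.107 by edgeR).

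In shoot apex against shoot the extremes were Nitab4.5_0001352g0010.1 and Nitab4.5_0000582g0050.1. The values of Nitab4.5_0001352g0010.1 (945 bases) were 15.1, 18.2 and 21.7 TPM in shoot apex and 1.21, 14.2 and 18.1 TPM in shoot (lowest 11.2 TPM without the odd pair), with an edgeR difference of 0.44 ± 0.12 (adjusted p = 0.00338) that limma also called (0.62, adjusted p = 0.0323). Nitab4.5_0000582g0050.1 (1533 bases) was lower in shoot apex by edgeR (-0.27 ± 0.08, adjusted p = 0.00643) and close to 0 by limma with all libraries (-0.05, adjusted p = 0.908), but not without the 5 libraries (-0.33, adjusted p = 0.0595 by limma). By edgeR it kept its sign but lost the call without replicate 2 (-0.31, adjusted p = 0.0542) and without replicate 3 (-0.19, adjusted p = 0.149). It kept the edgeR call without replicate 1 (-0.31, adjusted p = 0.0303) and without the 5 libraries (-0.28, adjusted p = 0.0204). The edgeR call of Nitab4.5_0001352g0010.1 remained without each replicate in turn.

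In shoot against root Nitab4.5_0000841g0010.1 (1845 bases) had the highest difference. It had 1.97, 17.3 and 22.5 TPM in shoot and 12, 15.2 and 18 TPM in root, and without the odd pair the lowest shoot value was 14.6 TPM. The 10 other shoot libraries overlapped root between 14.6 and 18 TPM. By edgeR it was higher in shoot by 0.42 ± 0.07 (adjusted p = 1.88e-05), and with limma the difference was 0.02 (adjusted p = 0.943), or 0.21 without the 5 libraries (adjusted p = 0.112). The lowest was again Nitab4.5_0001352g0010.1, at -0.24 ± 0.12 (adjusted p = 0.0972 by edgeR). Limma called it, at -0.59 (adjusted p = 0.0317), or -0.28 without the 5 libraries (adjusted p = 0.0312), where edgeR gave -0.04 (adjusted p = 0.819).

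Over the 4 time-points almost no member was called within shoot apex or shoot, and none in root, where almost no model was called at all. By edgeR the count was 0 in shoot apex, where 5.39 percent of all models were called, 1 in shoot (8.02 percent) and 0 in root (0.195 percent). At an unadjusted p under 0.05 there were 7, 7 and 6 members. No share of all models at an unadjusted p is given here, so counts at that threshold are not compared. DESeq2 called 5, 3 and 0 members (beside 8.5, 10.4 and 0.805 percent of all models), and limma 0 in each tissue (beside 1.39, 3.26 and 0.592 percent), with 0, 11 and 0 at an unadjusted p under 0.05. The member called in shoot, Nitab4.5_0001059g0070.1 (1257 bases, rank 127), had 42.9, 44.6 and 58.8 TPM at ZT0, 3.03, 37.4 and 38.4 TPM at ZT6, 36.7, 33.6 and 34.5 TPM at ZT12 and 32.9, 17.2 and 32.6 TPM at ZT18 in replicates 1 to 3. The ZT0 values were above all later ones. Its adjusted p was 0.0301 in edgeR with all libraries and 0.0541 without shoot ZT6 replicate 1, and without any one replicate number it was 0.16 to 0.522, so that the call did not hold up when libraries were left out.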

How the data were processed

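Total RNA was sequenced as single reads of 100 bases. The authors trimmed the reads and estimated expression with RSEM 1.2.7 (Bowtie 1.1.0 and CASAVA 1.9.4 are named in the submitters' processing notes) against predicted models of the Nitab4.5 assembly. The deposited single-library tables hold expected counts, not normalized, and TPM per gene model, and their effective length equals the length of the model. A joint table, labelled TPM, contains these expected counts again and was not used. The number of columns without a sample was 0.

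The members and lists were chosen with earlier results of these data known. Expected counts were rounded and fitted with edgeR 4.0.16 (glmQLFit in its newer form, legacy = FALSE, with no separate dispersion step, then glmQLFTest, TMM, filterByExpr, all 36 libraries in 12 groups). Tissue contrasts average the 4 time-points and a time test compares the 4 time-points of a tissue. Calls have an adjusted p under 0.05. The fit was tested on simulated data. The study's methods name no test of this kind. SEs are the absolute log2 fold change over the square root of F. Alternatives were DESeq2 1.42.0, limma 3.58.1 on log2(TPM + 1) or log2(TPM + 0.1), DESeq2 size factors, no filter, a replicate block, a term for length class, other windows and summaries, and libraries left out. R 4.3.3, Python 3.11.15, NumPy 2.4.6 and pandas 2.3.3 were used.

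Depth is the sum of expected counts. None of the 36 pairs of replicates was identical, and their counts differed by more than sampling noise. Members named singly are the 5 of lowest SD, those at the threshold, the highest and lowest level, the longest and shortest, the 2 largest and 2 smallest replicate SDs, the extremes of each tissue contrast, members near each other on a scaffold and those called over time. A RefSeq table of another assembly lists 0 of the identifiers.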

Additional observations from a re-analysis of the deposited data

How the results depend on the processing

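Of the 200 members 86 were chosen again with the mean in place of the median, 94 with a window of 20 to 100 TPM and 55 to 96 without one replicate. The median SD became 0.206 with means, over the 171 members that stayed in the window. Without replicates 1, 2 and 3 it was 0.203, 0.287 and 0.297, over 179, 142 and 139 members. The replicate SD was 0.598 with a pseudocount of 0.1, 0.189 without the 5 libraries of low mapping, 0.32 after division by the TMM factor, 0.192 without the odd shoot libraries (chosen after seeing the data, with 170 members chosen again and a median SD of 0.151) and 0.275 to 0.638 without one replicate. Division by the TMM factor, which was computed on counts, leaves the length scaling of TPM as it was. In held-out replicates the SD ran from 0.272 to 0.852.

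Counts of members called in shoot apex against root, shoot apex against shoot and shoot against root were 0, 2 and 12 by limma on log2(TPM + 1), 0, 2 and 9 with a pseudocount of 0.1, 34, 16 and 16 by limma without the 5 libraries and 34, 16 and 17 with root ZT18 replicate 2 kept (both chosen after seeing the data). By limma with a pseudocount of 0.1 the shares of all models called were 52.9, 37.5 and 51.4 percent. By edgeR the counts were 89, 17 and 72 without the 5 libraries. Without one replicate they were 42 to 66, 7 to 9 and 21 to 44. Beside them stood 57 to 62.1, 43.6 to 47.1 and 46.8 to 47.9 percent of all models. With the length class as a term 51 members were called in shoot apex against shoot (63.7 percent of all models). Time tests by DESeq2 gave 5 members in shoot apex (8.5 percent of all models) and 3 in shoot (10.4 percent). With the class term they gave 5 in shoot (12.6 percent). Without any one replicate they gave 0. The shares of all models were then 1.75 to 2.6 percent in shoot apex, 2.93 to 4.5 in shoot and 0 to 0.0269 in root. Nitab4.5_0000841g0010.1 turned to -0.0041 in shoot against root by limma on log2(TPM + 0.1). Leaving out shoot ZT6 replicate 1 alone (chosen after seeing the data) gave 67, 20 and 42 by edgeR in the tissue contrasts. Of all models 66.9, 53.6 and 55.6 percent were then called. The causes of these changes were not tested.

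Replicate numbers did not pair the samples: of 198 pairs with the same number 85 had deviations correlated over 0.1 (median r 0.013), and 14 of 36 libraries were closest to one of their own number. With the replicate block edgeR called 60, 25 and 39 members in the tissue contrasts, beside 66.5, 55.2 and 56.3 percent of all models. Over time it called 0, 1 and 0, beside 4.96, 6.9 and 0.114 percent. Depth limits members near 74 counts in a library, where counting SD is up to 0.168.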

Other observations

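The window itself leaves out steady models. When the 39671 models with all 12 medians above 0 were ranked by the same SD, 63 of the first 200 lay outside 10 to 100 TPM. Of these 57 had a median under 10 TPM and 6 a median over 100 TPM, and in 4 all 12 medians were over 100 TPM. The geometric means in that list ran from 2.03 to 233 TPM, and its SDs from 0.0852 to 0.163.

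A group of 13 members was chosen under each of 12 other settings of the rule, the list having been made after the values were seen. All 13 average over 20 TPM, which the setting with a window from 20 TPM requires. The highest placed was Nitab4.5_0003247g0070.1 (rank 9, 791 bases, 25.4 TPM), whose highest median was 1.27 times the lowest. The most abundant was Nitab4.5_0002185g0060.1 (rank 18, 1729 bases, 75.6 TPM), at 1.32 times. The shortest of the 13 was Nitab4.5_0008668g0010.1 (rank 133, 645 bases, 27.6 TPM), at 1.41 times. None of the 5 members with the lowest SD is among them, and of those 5 Nitab4.5_0008335g0030.1, Nitab4.5_0001177g0090.1 and Nitab4.5_0022896g0010.1 average under 20 TPM.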
